A study of Mus musculus with 8 samples.

Results

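Procr, Slamf1, Cd48, Cd244a, Ly6a, Esam, Cd34 and Cd27 encode surface proteins by which mouse haematopoietic stem cells (HSC) and the progenitors below them are sorted. The list is given by name and uses no measured value, although earlier results of these data were known when it was drawn up. They are 8 of the 32285 genes in the deposited matrices. Each of the 8 libraries holds lineage-negative c-Kit+ bone marrow cells of 1 wild-type mouse, profiled by droplet single-cell RNA-seq without transplantation. A male and a female were profiled at 14 weeks (young), at 50 weeks (middle-aged), at 78 weeks for the male and 79 weeks for the female (old), and at 95 weeks (very old). The labels name no treatment. The old and very old mice together, 4 in all, are called older. With 1 mouse of each sex at each age, p-values rest on the spread between these 8 mice, and since both very old libraries belong, by their labels, to a separate library series, that series and the age of 95 weeks cannot be told apart.

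In mouse bone marrow the most primitive HSC are sorted by the presence of the SLAM receptor CD150 (Slamf1) and of the endothelial protein C receptor EPCR (Procr), and by the absence of CD48 and of CD244, the receptor that binds CD48. SCA-1 (Ly6a), a GPI-anchored protein of the Ly6 family, and the junction protein ESAM (Esam) mark HSC and early multipotent progenitors (MPP). The sialomucin CD34 (Cd34) is low on long-term HSC and higher on progenitors, and CD27 (Cd27), a receptor of the tumour necrosis factor receptor family, is found on HSC and on many progenitors. A transcript count does not measure the protein at the surface, and a cell with no molecule of a low transcript may still carry the protein.

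All 8 genes were detected. Slamf1, Cd48 and Cd244a lie within a cluster of SLAM genes on chromosome 1 (GRCm38): Cd244a at chr1:171559193-171609746, Cd48 at chr1:171682009-171705258 and Slamf1 at chr1:171767127-171801184, all on the plus strand. Counted from the start of Slamf1, Cd48 starts at -85.1 kb and Cd244a at -207.9 kb. Procr lies at chr2:155751117-155755471 (plus), Esam at chr9:37528078-37538319 (plus), Cd34 at chr1:194938819-194961279 (plus), Ly6a at chr15:74994877-74998031 (minus) and Cd27 at chr6:125232622-125237010 (minus). Cd244a overlaps Ly9, Cd27 overlaps Vamp1 and Cd34 overlaps the antisense gene Gm16897, each on the opposite strand, Cd48 overlaps Gm37010 and Cd27 overlaps the microRNA gene Mir8113 on the same strand, and Ly6a has close relatives in the Ly6 family. Whether counting used strand is not given in the sources used here, so reads of such neighbours may not be separable.

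RefSeq start regions (GRCm38.p6, 250 bases before the start site to 50 after it) were matched for 6 of the 8 genes, and Ly6a and Esam had no entry. They are shown for the 4 genes with an entry whose level passed the test with age below, since these are the start regions of the transcripts that rose or fell. Capitals mark GATAA, the core of GATA factor sites, and TGNGGT, found on either strand. TGNGGT, with N any base, is looser than the core of RUNX sites, TGYGGT, where Y is C or T. The stretches marked in Procr and Cd244a have A at that letter, so neither is that core. The regions are chr2:155750967-155751266, chr1:171766882-171767181, chr1:194938571-194938870 and chr1:171558943-171559242, all plus strand, written 5′ to 3′.
Procr: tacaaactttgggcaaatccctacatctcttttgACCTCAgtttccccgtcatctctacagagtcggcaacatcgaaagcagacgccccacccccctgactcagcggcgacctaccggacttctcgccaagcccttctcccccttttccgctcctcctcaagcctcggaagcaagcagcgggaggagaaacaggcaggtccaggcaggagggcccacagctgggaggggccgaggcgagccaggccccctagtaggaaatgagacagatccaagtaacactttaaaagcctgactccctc
Slamf1: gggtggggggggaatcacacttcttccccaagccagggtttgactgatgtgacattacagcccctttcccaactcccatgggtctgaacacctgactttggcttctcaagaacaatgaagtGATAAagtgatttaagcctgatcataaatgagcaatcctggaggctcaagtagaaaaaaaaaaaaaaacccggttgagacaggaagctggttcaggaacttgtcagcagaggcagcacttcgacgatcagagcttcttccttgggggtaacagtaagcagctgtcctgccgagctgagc
Cd34: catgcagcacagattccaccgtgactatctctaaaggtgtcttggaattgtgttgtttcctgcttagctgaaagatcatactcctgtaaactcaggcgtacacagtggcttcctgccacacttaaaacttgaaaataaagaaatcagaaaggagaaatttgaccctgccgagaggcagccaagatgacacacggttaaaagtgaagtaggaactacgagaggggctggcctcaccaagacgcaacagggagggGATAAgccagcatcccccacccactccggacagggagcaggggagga
Cd244a: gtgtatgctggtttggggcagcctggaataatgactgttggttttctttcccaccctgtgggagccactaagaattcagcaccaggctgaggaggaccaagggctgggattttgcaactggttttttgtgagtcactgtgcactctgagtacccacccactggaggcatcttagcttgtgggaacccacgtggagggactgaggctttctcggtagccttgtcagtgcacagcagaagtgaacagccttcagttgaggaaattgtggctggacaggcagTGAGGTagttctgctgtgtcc
GATAA was found in 2 of the 6 regions, those of Slamf1 and Cd34, and in 25.4% of all 32851 regions of this length. TGNGGT was found in 3 of the 6, those of Procr, Cd48 and Cd244a, and in 45.8% of all regions. GGAAG (the ETS core) and CANNTG (the E-box) were each found in 5 of the 6, against 71.4% and 72.3% of all regions. Of the genes printed, Slamf1, higher with age, and Cd34, lower with age, hold GATAA, and Procr and Cd244a, which also moved in opposite directions, hold TGNGGT. A match is a description of the letters in this window only.

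The 8 libraries held 59465 barcodes, and 59136 cells had at least 200 detected genes. Totals ranged from 83062003 to 150135029 unique molecular identifiers (UMIs) per library. Of 58996 barcode sequences, 465 occurred in 2 libraries and 2 in 3 libraries. Clustering gave 24 clusters, 6 of which were of low depth and were left out of the cell classes. The HSC-like class was 1 cluster of 4771 cells, 8.07% of all cells, with Ltb, Sult1a1, Hlf, Nupr1, Meg3, Myl10, Hacd4, Mecom, Nkx2-3 and Trim47 as its leading genes. Of all kept cells, low-depth ones included, it made up 5.77% and 5.202% in the young male and female. It made up 8.97% and 6.63% in the middle-aged pair, 13.6% and 7.60% in the old pair, and 10.9% and 7.17% in the very old pair. The cells within it were not alike across ages: a cell thinned to 4500 UMIs held 4.78 and 4.72 of the fixed HSC markers on average in the young mice and 5.17 to 6.65 in the older mice. MPP markers went the other way, at 4.30 and 3.84 in the young mice and 2.77 to 3.11 in the older mice. Megakaryocyte markers, at 0.954 and 0.889 in the young mice, were at 1.07 to 1.32 in the older mice, without overlap. Erythroid markers were lower instead, at 1.90 and 2.06 in the young and 1.67 to 1.88 in the older mice, also without overlap. Granulocyte-monocyte progenitor markers overlapped, at 4.62 and 4.13 in the young and 2.68 to 4.15 in the older mice. Kit, the gene of the sorted receptor, had 126 to 210.1 counts-per-million (CPM, the UMIs of a gene scaled by all UMIs of a class in a mouse) in HSC-like cells of the 8 mice.

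The name of stem cell markers held for some of the 8 transcripts more than for others. Levels are given in CPM, and each gene is compared only with itself across classes. Procr was at 101 ± 37.8 CPM (SD, n = 8 mice) in HSC-like cells and at 12.4 ± 6.06 in the next class, an unnamed cluster led by Adgrl4 and Tespa1, with no overlap of the 2 ranges. Ly6a was at 188 ± 49.8 CPM in HSC-like cells and at 34.2 ± 17.6 in the same next class, again without overlap. Esam was at 60.9 ± 19.3 CPM in HSC-like cells and at 28.6 ± 11.7 in megakaryocyte progenitor-like cells, and it was higher in HSC-like cells in all 8 mice although the ranges overlapped. Among these classes Procr, Ly6a and Esam were thus highest in HSC-like cells, which held 65.4%, 53.1% and 41.8% of all UMIs of these genes. A small cluster led by Igkc and Iglc1 was too small for this ranking. It held 1.40% of Ly6a UMIs in 0.186% of all cells, so Ly6a was not confined to the early classes.

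Slamf1 was shared with the megakaryocytic and erythroid side. It was at 18.7 ± 3.58 CPM in erythroid-megakaryocyte precursor-like cells, 13.6 ± 2.50 in megakaryocyte progenitor-like cells and 13.5 ± 8.47 in HSC-like cells, with overlapping ranges, and at 1.17 ± 0.461 in MPP-like cells. These means join all ages: in the young male and female HSC-like cells were at 4.26 and 2.46 CPM, below the 14.6 and 15.5 of their megakaryocyte progenitor-like cells. HSC-like cells held 17.5% of Slamf1 UMIs over all mice, from 2.21% in the young female to 39.5% in the old male.

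Cd48 and Cd244a, ligand and receptor, were highest in dendritic progenitor-like cells, at 443 ± 40.8 and 54.9 ± 12.8 CPM. In HSC-like cells Cd48 stood at 34.7 ± 20.2 CPM, against 167 ± 16.7 in MPP-like cells, and its mean was lower only in erythroid-like cells, whose range overlapped. Cd244a was at 14.7 ± 6.78 CPM in HSC-like cells and at 26.4 ± 4.16 in MPP-like cells. These means join all ages. In the young male and female Cd244a was at 25.3 and 20.4 CPM in HSC-like cells, within the 20.2 to 32.4 of MPP-like cells over all mice. HSC-like cells held 1.41% of Cd48 UMIs and 6.48% of Cd244a UMIs.

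Cd34 was highest in the Adgrl4-Tespa1 cluster (411 ± 39.9 CPM) and in MPP-like cells (398 ± 30.1), and stood at 249 ± 105 in HSC-like cells, a range that overlapped those of both. These means join all ages. In the young male and female HSC-like cells were at 438 and 372 CPM, within the 342 to 443 of MPP-like cells over all mice. Cd27 did not separate the early classes, at 182 ± 37.5 CPM in HSC-like cells, 179 ± 21.3 in the Adgrl4-Tespa1 cluster and 167 ± 13.3 in MPP-like cells, with overlapping ranges. It was lower in each of the later classes, down to 8.38 ± 2.96 CPM in erythroid-like cells.

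**Figure D1:**
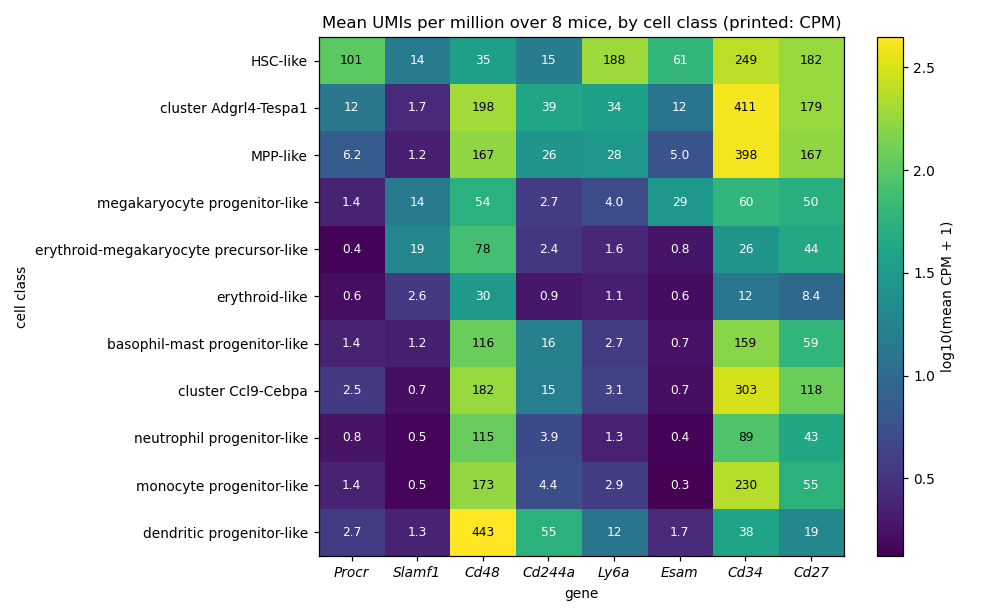
Heat map of the mean level of each of the 8 genes (columns) over 8 mice in each cell class (rows). The printed numbers are CPM and the colour is log10 of the mean CPM plus 1. Procr and Ly6a are highest in the HSC-like class, Slamf1 is highest in the erythroid-megakaryocyte, megakaryocyte and HSC-like classes when all ages are averaged, and Cd48 and Cd244a are highest in the dendritic progenitor-like class.

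In HSC-like cells Procr, Slamf1 and Esam rose with age and Cd34 and Cd244a fell. Slamf1 changed most, 6.25-fold, and Procr and Esam rose 2.28-fold and 2.29-fold. Cd34 and Cd244a fell to 0.466 and 0.458 times the young level. By edgeR's quasi-likelihood test over 11706 genes, with sex as a covariate, 3 of the 8 genes were higher and 2 lower in the older mice at an adjusted p under 0.05. Over all genes tested 6.39% were higher and 3.84% lower, 10.2% in all. The median log2 fold change was 0.07 over the 8 genes and -0.03 over all genes tested.

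Slamf1 was at 4.26 CPM in the young male and 2.46 in the young female, 13.8 and 8.39 in the middle-aged male and female, 22.0 and 17.9 in the old pair, and 26.7 and 12.4 in the very old pair. Both young mice lay below all other mice, and within each age the female was below the male. The young values rest on 16 and 10 UMIs, the older ones on 55 to 163. Slamf1 and Esam are also transcripts of megakaryocyte progenitor-like cells, and the part of the higher megakaryocyte marker counts of older HSC-like cells in their rise was not tested. The log2 fold change of older against young was 2.64 (SE 0.26, edgeR adjusted p = 0.000102), from 3.36 ± 1.27 CPM (SD, n = 2) to 19.8 ± 6.08 (n = 4).

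Procr, the receptor of activated protein C, was at 72.7 and 46.0 CPM in the young male and female, 107 and 80.1 in the middle-aged pair, 144 and 115 in the old pair, and 159 and 86.5 in the very old pair. All older mice were above both young mice, and the very old female was closest to them. From 59.3 ± 18.9 CPM (SD, n = 2) in young to 126 ± 32.2 (n = 4) in older mice, the log2 fold change was 1.19 (SE 0.13, edgeR adjusted p = 0.000167).

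Esam was at 29.8 and 37.1 CPM in the young male and female, 73.8 and 54.9 in the middle-aged pair, 83.0 and 66.8 in the old pair, and 79.6 and 61.9 in the very old pair. The middle-aged mice already lay above the young mice. The log2 fold change of older against young was 1.20 (SE 0.15, edgeR adjusted p = 0.000571), from 33.5 ± 5.17 CPM (SD, n = 2) to 72.8 ± 10.1 (n = 4).

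Ly6a did not pass the test. It was at 138 and 142 CPM in the young male and female, 282 and 173 in the middle-aged pair, 196 and 216 in the old pair, and 142 and 215 in the very old pair, so that the very old male was at the level of the young mice and the highest value was in the middle-aged male. The log2 fold change of older against young was 0.54 (SE 0.20, edgeR adjusted p = 0.116). With no filter on low counts it was 0.58, little changed, but with a smaller SE of 0.11. The counts of Ly6a were the same in both fits, so the call without the filter rests on the smaller SE. It passed with no filter on low counts (adjusted p = 3.59e-06) and in 3 of the 8 fits that left out 1 mouse: at 0.57 without either middle-aged mouse (0.00788 without the male, 0.00752 without the female) and at 0.73 without the very old male (0.0416). It fell to 0.32 without the very old female (adjusted p = 0.296), 0.15 without Harmony (0.859), 0.16 in cells chosen by a marker gate (0.729) and 0.21 in cells matched on markers (0.627).

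Cd34 was at 438 and 372 CPM in the young male and female, 214 and 243 in the middle-aged pair, 186 and 217 in the old pair, and 108 and 217 in the very old pair. Both young mice were above all others, and the very old male was lowest. The log2 fold change was -1.10 (SE 0.18, edgeR adjusted p = 0.00267), from 405 ± 46.4 CPM (SD, n = 2) to 182 ± 51.2 (n = 4).

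Cd244a was at 25.3 and 20.4 CPM in the young male and female, 12.1 and 17.9 in the middle-aged pair, 7.14 and 12.04 in the old pair, and 5.25 and 17.4 in the very old pair. The older mice lay below the young mice, with the very old female closest to them. From 22.8 ± 3.45 CPM (SD, n = 2) the level fell to 10.5 ± 5.44 (n = 4), a log2 fold change of -1.13 (SE 0.29, edgeR adjusted p = 0.0313).

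Cd48, its ligand, was at 64.7 and 48.9 CPM in the young male and female, 28.6 and 31.1 in the middle-aged pair, 12.9 and 29.5 in the old pair, and 6.89 and 55.3 in the very old pair. The very old female lay between the young mice, whereas the other older mice lay below both. Older against young, it stood at -1.25 on the log2 scale (SE 0.44), and edgeR's adjusted p of 0.0972 missed the threshold. This value rested on single mice: it was -2.14 without the very old female and -2.07 without the young female (edgeR adjusted p = 0.000945 and 0.0244), but -0.39 without the young male and -0.72 without the very old male (adjusted p = 0.789 and 0.139).

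Cd27 was at 259 and 186 CPM in the young male and female, 176 and 199 in the middle-aged pair, 188 and 154 in the old pair, and 144 and 146 in the very old pair. The old male lay just above the young female, so the groups overlapped. Its log2 fold change of -0.39 (SE 0.12, edgeR adjusted p = 0.0589) missed the threshold. It passed with no filter on low counts (adjusted p = 0.00831), with doublets left out (0.0452) and in 3 of the 8 fits that left out 1 mouse. Without the young male it was at -0.14 (adjusted p = 0.742), without Harmony at -0.25 (0.563), and in the marker-matched cells at -0.26 (0.305).

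With levels scaled by TMM, all 4 older mice were above both young mice for 4 of the 8 genes (Procr, Slamf1, Esam and Ly6a) and below both for 2 (Cd34 and Cd244a). Over all genes tested the groups did not overlap for 31.7%.

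**Figure D2:**
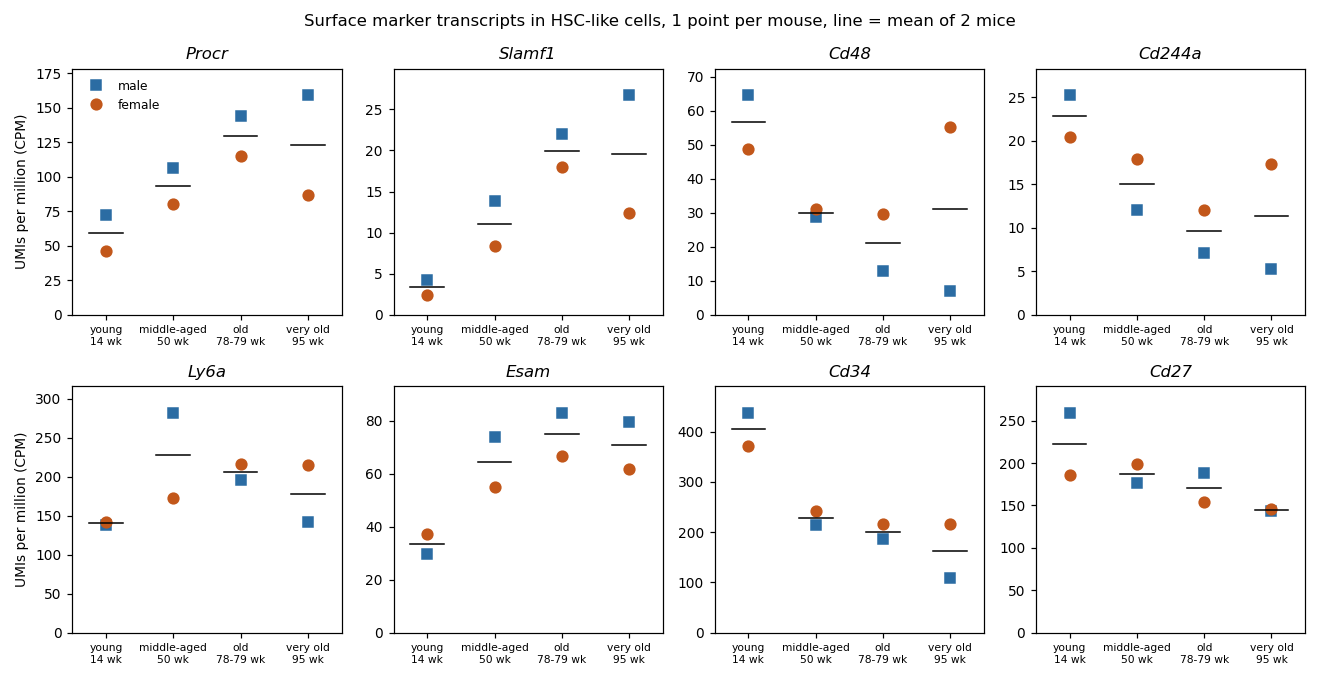
Level of each of the 8 genes in HSC-like cells, in CPM, by age group, with 1 point per mouse (squares are males, circles females) and a line at the mean of each pair. Slamf1 is lowest in the 2 young mice and Cd34 is highest in them, and the very old female stands apart from the very old male for Cd48.

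Some of these calls rested on the clustering and on single mice. Without Harmony integration, which left 57 and 81 HSC-like cells in the young male and female, the log2 fold change was 0.56 for Procr (edgeR adjusted p = 0.0737), 0.95 for Slamf1 (adjusted p = 0.207) and 0.32 for Esam (adjusted p = 0.542), and only Cd34 passed, while Cd244a fell below the filter on low counts. Without the young male the calls of Cd34 (-0.72, adjusted p = 0.139) and Cd244a (-0.47, adjusted p = 0.544) were lost, and that of Cd244a was also lost without the old male, the old female or the very old male. In these 4 fits the log2 fold change of Cd244a ranged from -1.18 to -0.47, against -1.13 in the main fit. Cd244a passed in 7 of the 12 alternatives in which it was tested, and did not in cells chosen by a marker gate (-0.56, adjusted p = 0.451) or without the sex term (-1.08, adjusted p = 0.115). Procr, Slamf1 and Esam passed whichever mouse was left out.

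The middle-aged mice, compared with the same young mice, had higher Procr, Slamf1 and Esam. The log2 fold change was 0.72 for Procr (SE 0.14, edgeR adjusted p = 0.0257), 1.78 for Slamf1 (SE 0.30, adjusted p = 0.0116) and 0.98 for Esam (SE 0.17, adjusted p = 0.0121). These 3 of the 8 genes stand beside 1.59% of all genes tested. Cd34 was at -0.79 (SE 0.21, adjusted p = 0.0946) and Ly6a at 0.76 (SE 0.23, adjusted p = 0.131). In the fits that left out 1 mouse and lost the call, Slamf1 was at 1.76 to 1.85, Procr at 0.71 to 0.83 and Esam at 0.66 to 0.85. In cells chosen by a gate on markers Slamf1, Procr and Esam were at 1.06, 0.44 and 0.68. No gene of the 8 passed without the young male, without the middle-aged male, without the sex term or with cells chosen by a gate on markers, and the comparison rests on 2 mice a group. The calls of these 3 genes also ended without Harmony, the integration of libraries, where Procr was at 0.27, Slamf1 at 0.39 and Esam at 0.34, and in cells drawn to one distribution of the fixed markers across mice, at 0.45, 1.42 and 0.55 with adjusted p-values of 0.247, 0.245 and 0.207. In both of these settings Cd34 passed instead (adjusted p = 0.0377 and 0.0435), as it did with no filter on low counts, in thinned cells (0.0156), without cells holding Mki67, Top2a or Pcna (-1.25, 0.00138), and without the young female (-1.06, 0.0228) or either very old mouse, but it was at -0.40 without the young male (0.807). Ly6a was at 0.22 without the middle-aged male (adjusted p = 0.72) and at 1.27 without the middle-aged female (0.00266), and it also passed with no filter and without cells holding Mki67, Top2a or Pcna (0.0172). Slamf1 also lost its call when cells with Mki67, Top2a or Pcna were left out, and Procr without the young female.

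The old and the very old mice were each set against the same young mice, so their values share those controls, and the old were not tested against the very old. In either comparison Procr, Slamf1 and Esam were higher and Cd34 lower, 4 of the 8 genes, beside 6.85% of all genes for the old mice and 7.3% for the very old. Slamf1 had a log2 fold change of 2.62 in the old and 2.67 in the very old mice, and that of Cd34 was -0.98 and -1.23 (edgeR adjusted p = 0.0165 and 0.00523). Cd48, not called in either, was at -1.52 and -0.99. As a slope on age in all 8 mice, the log2 change per 10 weeks was 0.31 for Slamf1, 0.15 for Procr, 0.14 for Esam and -0.15 for Cd34, all past the threshold, beside 5.57% of all genes. Without the young male 2 of the 8 genes passed for the slope.

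Procr also differed between the sexes. Its level was lower in the female than in the male at each of the 4 ages, with a log2 difference of -0.55 (SE 0.10, edgeR adjusted p = 0.0306), the only call among the 8 genes beside 0.402% of all genes. Slamf1 was lower in the female at each age too, at -0.69 (SE 0.16, adjusted p = 0.1004). The call of Procr was lost on leaving out any of the 4 older mice.

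Outside the HSC-like class few of the 8 genes passed the test. In the Adgrl4-Tespa1 cluster Esam was at 2.84 and 4.84 CPM in the young male and female and at 10.5 to 17.7 in the older mice, with a log2 fold change of 1.94 (SE 0.26, edgeR adjusted p = 0.00112). Procr was at 7.004 and 4.84 CPM there in the young mice and at 9.60 to 19.9 in the older mice, with a log2 fold change of 1.24 (SE 0.23, adjusted p = 0.0204). These 2 of 8 genes stand beside 0.529% of all genes. Neither passed without the young male, and Procr did not pass without the young female or the very old male or by DESeq2.

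In megakaryocyte progenitor-like cells Esam rose from 11.1 and 16.6 CPM in the young mice to 28.5 to 50.4 in the older mice, with a log2 fold change of 1.36 (SE 0.20, edgeR adjusted p = 0.00232). Cd48 fell from 78.0 and 63.2 CPM to 35.2 to 55.3, with a log2 fold change of -0.66 (SE 0.14, adjusted p = 0.0203). These 2 of 8 genes stand beside 2.86% of all genes, and neither passed without the young male, nor Cd48 without the old male or the very old male. Slamf1 was at 10.7 to 18.4 CPM over the 8 mice in these cells and had a log2 fold change of -0.15 here (SE 0.15, adjusted p = 0.703).

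None of the 8 genes passed in the 8 other classes tested by edgeR or by DESeq2. A cluster led by Igkc and Iglc1, with 6 to 20 cells per mouse, was not tested, since classes with fewer than 20 cells in a mouse were left out. At an unadjusted p under 0.05 by edgeR, 2 of 6 tested genes passed in monocyte progenitor-like cells, 4 of 8 in erythroid-like, 0 of 5 in neutrophil progenitor-like, 1 of 4 in erythroid-megakaryocyte precursor-like, 2 of 8 in MPP-like, 2 of 6 in the cluster led by Ccl9 and Cebpa, 1 of 5 in basophil-mast progenitor-like and 0 of 5 in dendritic progenitor-like cells. By the same unadjusted threshold 986 of 11647 of all genes tested passed in monocyte progenitor-like, 767 of 12401 in erythroid-like, 382 of 10717 in neutrophil progenitor-like, 775 of 10244 in erythroid-megakaryocyte precursor-like, 1052 of 12127 in MPP-like, 664 of 10855 in the Ccl9 and Cebpa cluster, 764 of 10385 in basophil-mast progenitor-like and 215 of 7389 in dendritic progenitor-like cells. After adjustment, where no gene of the 8 passed, the calls over all genes were 0.0601%, 0.0161%, 0.028%, 0.322%, 0.338%, 0.101%, 0.0193% and 0%, in the same order.

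**Figure D3:**
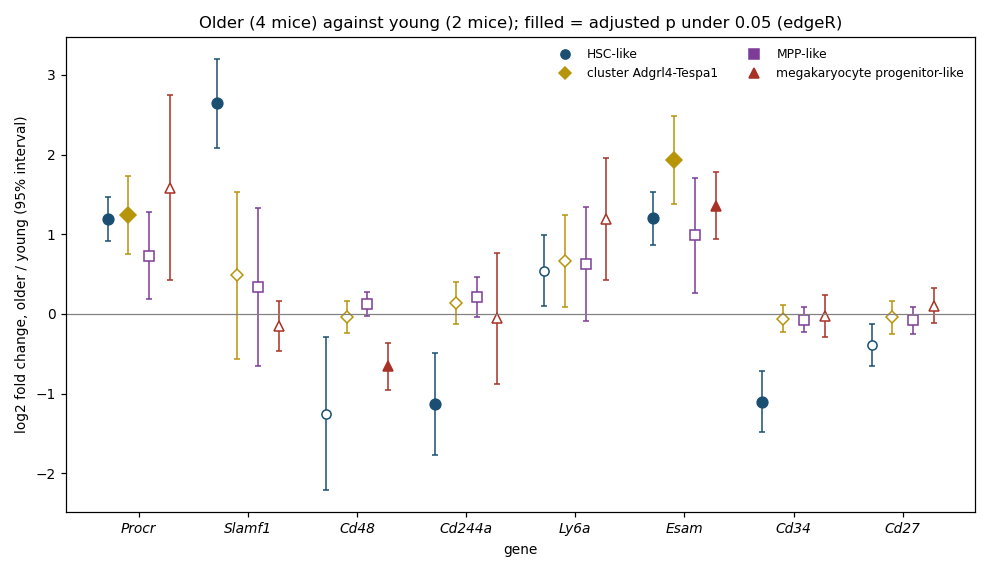
Log2 fold change of older (4 mice) against young (2 mice) from edgeR for each of the 8 genes, with 95% intervals, in HSC-like cells, the Adgrl4-Tespa1 cluster, MPP-like cells and megakaryocyte progenitor-like cells. Filled symbols passed an adjusted p of 0.05: 5 genes in HSC-like cells, Procr and Esam in the Adgrl4-Tespa1 cluster, Esam and Cd48 in megakaryocyte progenitor-like cells and none in MPP-like cells.

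Cd34 changed differently in HSC-like and MPP-like cells. In MPP-like cells it stayed between 342 and 443 CPM over the 8 mice, and the difference between the 2 classes in their older-young change was -1.02 on the log2 scale (SE 0.19, edgeR adjusted p = 0.00835). It was the only call among the 8 genes, beside 2.83% of all genes, and it was lost without either young mouse and by DESeq2. The differences for Slamf1 (2.32, SE 0.62, adjusted p = 0.0524) and Cd244a (-1.31, SE 0.37, adjusted p = 0.0668) missed the threshold. For Procr (0.46, SE 0.29) and Esam (0.23, SE 0.31) the adjusted p was 0.463 and 0.774, which does not show that the classes changed alike.

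Summed over whole libraries, Procr was higher by 1.53 on the log2 scale (SE 0.10, edgeR adjusted p = 0.00278) and Esam by 1.63 (SE 0.16, adjusted p = 0.00784) in the older mice, 2 of 8 genes beside 1.21% of all genes. In such sums more cells of a class and more RNA per cell cannot be told apart. Of all kept cells, low-depth ones included, HSC-like cells were a larger share in every older library than in either young one. The share of low-depth cells itself differed between libraries and was highest in the young male (30.4%). Slamf1 (0.28, adjusted p = 0.647) and Cd34 (-0.09, adjusted p = 0.854) did not pass over whole libraries. Without the young male Procr was at 1.52 and Esam at 1.35 there, and with 2 of 15673 genes called in that fit neither passed (adjusted p = 0.0803 for both).

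In single cells most of the 8 transcripts were sparse, so shares of cells were counted after thinning every cell to 4500 UMIs, which kept 4356 of the 4771 HSC-like cells. Slamf1 was then detected in 0.546% of HSC-like cells in the male at 14 weeks, 1.42% in the female of that age and 4.46% to 10.3% at the older ages, against 3.43% and 2.21% and 7.73% to 18.1% without thinning. In neutrophil progenitor-like cells, which should lack the gene, 0% to 0.47% had a Slamf1 UMI, with median depths of 14462 to 24974 UMIs before thinning against 6947 to 10518.5 in HSC-like cells. In erythroid-like cells of the young male and female 1.41% and 1.19% had one, so that the young HSC-like shares were not above every other class. Procr was detected in 26.5% and 18.4% of young HSC-like cells and 30.3% to 48.4% of older ones, against 0% to 0.99% in erythroid-like cells, whose median depth was 20452 to 38021.5. Cd34 was detected in 81.7% and 72.1% of young HSC-like cells and 29.6% to 51.7% of older ones.

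The sort patterns were then read in transcripts. Cells with Slamf1 and without Cd48, the transcript form of the SLAM gate, made up 0.546% of HSC-like cells in the young male (2 of 366 cells, 95% exact binomial interval 0.0662% to 1.96%) and 1.18% in the young female (5 of 423, 0.385% to 2.74%). In the older mice the share was 7.21% in the old male, 6.14% in the old female, 10.1% in the very old male and 4.28% in the very old female, and the middle-aged male and female were at 5.95% and 2.71%, the male within the range of the older mice. Every older mouse was above both young mice. Since only 4 HSC-like cells held both transcripts, the condition on Cd48 removed few cells, and the pattern is close to the detection of Slamf1 alone. The difference of the means was 6.08 percentage points, with p = 0.133 by a two-sided exact permutation test, the smallest that 4 mice against 2 allow, for this pattern and for the 4 others. Intervals cover counting error only.

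Cells with both Procr and Slamf1 made up 0.391 ± 0.219% of HSC-like cells in young mice (SD, n = 2), 1.81 ± 1.16% in middle-aged mice (n = 2) and 3.69 ± 1.72% in older mice (n = 4). Asking also for no Cd48 and no Cd244a UMI gave 0.391% in young and 3.66 ± 1.72% in older mice, but at this depth most HSC-like cells have no UMI of either gene, so this condition could remove few cells. The young values are 2 cells of 366 and 1 cell of 423, so that the fold is poorly fixed.

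The pattern of Cd34 with Cd27, of which Cd27 did not separate the early classes, went the other way. Cells with both Cd34 and Cd27 made up 53.0% and 41.6% of HSC-like cells in the young male and female, 26.3% and 35.7% in the middle-aged pair, 27.3% and 29.9% in the old pair, and 15.5% and 27.3% in the very old pair. Cells with Ly6a and without Cd34 made up 8.20% and 12.5% in the young pair, 33.1% and 19.7% in the middle-aged pair, 29.7% and 29.4% in the old pair, and 29.0% and 30.1% in the very old pair. All older mice were above both young mice in this pattern, which joins Ly6a, a gene that did not pass the test, with the absence of Cd34, which did. In erythroid-like cells of a mouse, 0.146% to 1.28% had Cd34 and Cd27, and 0.109% to 1.04% had Ly6a without Cd34.

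**Figure D4:**
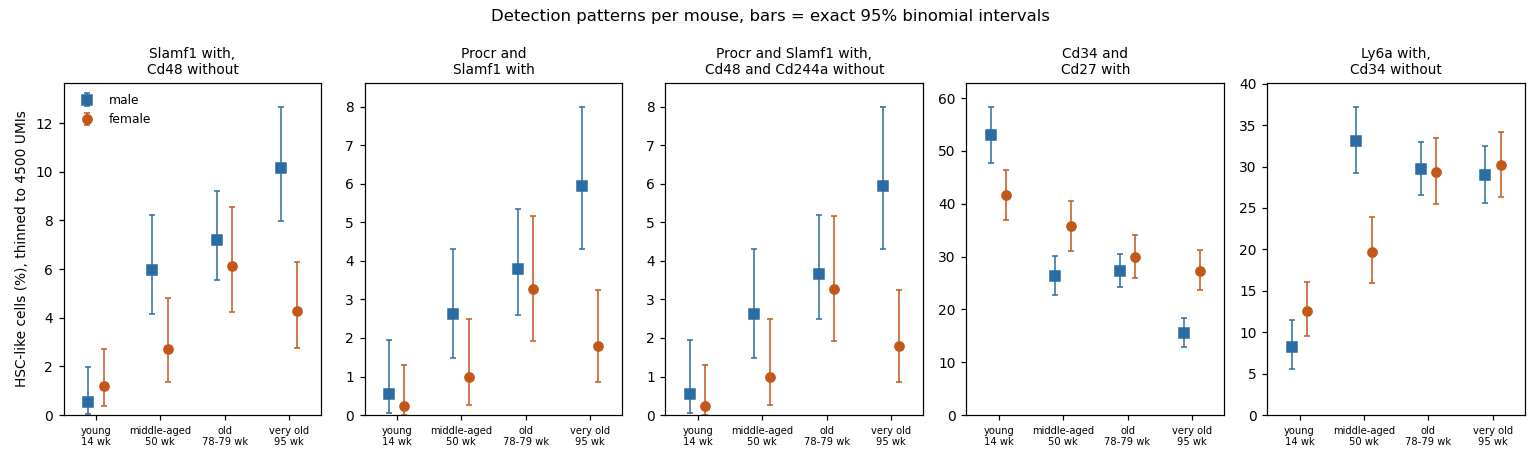
Share of HSC-like cells with each of 5 transcript patterns, in percent of cells thinned to 4500 UMIs, by age group, with 1 point per mouse (squares are males, circles females) and exact 95% binomial intervals as bars. Shares with Slamf1 are lowest in the young mice, and the share with Cd34 and Cd27 is highest in them.

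These patterns differed in how far they marked HSC-like cells among all classes. Of the cells with both Procr and Slamf1, 96.8% were HSC-like. Of the cells with Slamf1 and without Cd48, 29.5% were HSC-like, 27.4% megakaryocyte progenitor-like, 22.8% erythroid-megakaryocyte precursor-like and 11.2% erythroid-like. These shares join mice of all ages: the pattern was found in 0.546% to 10.1% of HSC-like cells of a mouse and in 3.53% to 6.79% of megakaryocyte progenitor-like cells, and the young mice had 2 and 5 such HSC-like cells. Of the cells with Ly6a and without Cd34, 74.8% were HSC-like, and of those with Cd34 and Cd27, 17.1% were HSC-like and 32.0% MPP-like.

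Within HSC-like cells some pairs of the 8 transcripts were found together and others apart. For each pair the cells with both were counted and set against the number expected from the product of the 2 shares in each mouse. These ratios are descriptions, since cells of a mouse share a library, and all cells were thinned to 1 depth. Procr was found with Slamf1 in 121 cells against 99.99 expected, a ratio of 1.21, above 1 in 7 of 8 mice. The ratio was above 1 in all 8 mice for Procr with Ly6a (1.15) and with Esam (1.125).

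Cd48, Cd244a and Cd34 were also found with each other. Cd48 was found with Cd244a, its receptor, in 2.14 times the expected number of cells, Cd34 with Cd244a 1.48 times and Cd34 with Cd48 1.39 times, each above 1 in all 8 mice. Cd34 with Cd27 was at 1.11, also in all 8 mice.

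Between Cd48, Cd244a or Cd34 and Procr, Slamf1, Ly6a or Esam the ratios over all mice were below 1. Slamf1 and Cd48 were found together in 4 cells against 17.9 expected, a ratio of 0.223, below 1 in 7 of 8 mice. Slamf1 and Cd244a were found together in 1 cell against 9.10 expected, a ratio of 0.110. Procr with Cd48 was at 0.513, Cd48 with Esam at 0.600, Slamf1 with Cd34 at 0.478, Esam with Cd34 at 0.772 and Procr with Cd34 at 0.806, each below 1 in all 8 mice. Ly6a and Esam were near the expected number, at 1.01. Put as shares, Cd34 was detected in 26.7 ± 15.7% of HSC-like cells with Slamf1 and in 55.1 ± 15.6% of those without (SD, n = 8 mice), and in 84.7 ± 7.72% of cells with Cd244a against 52.2 ± 16.1% of those without.

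**Figure D5:**
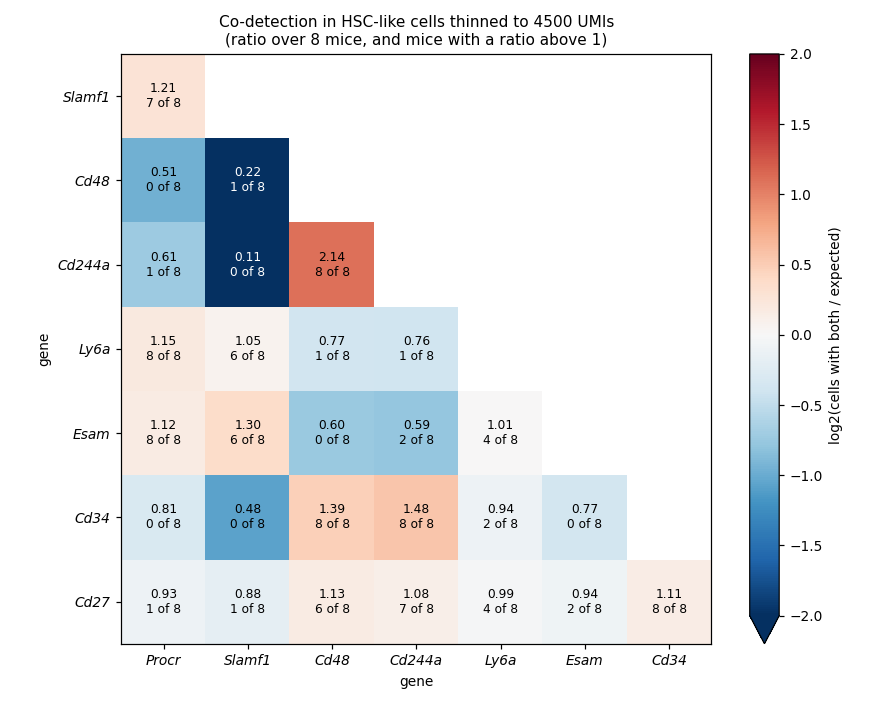
Co-detection of each pair of the 8 genes in HSC-like cells thinned to 4500 UMIs, as the number of cells with both over the expected number. Each square prints the ratio over the 8 mice and how many mice were above 1, with the log2 of the ratio as colour. Cd48 with Cd244a is at 2.14 and Slamf1 with Cd244a at 0.110.

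Since older HSC-like cells carried more HSC marker transcripts, the 8 genes were also read within bins by the number of those markers. The bins were 0 to 2, 3 or 4, 5 or 6, and 7 or more. Marker numbers can still differ between ages within a bin, also in the open top bin. In cells with 7 or more HSC markers, Procr was detected in 32.3% on average in young and 51.7% in older mice, Slamf1 in 4.33% and 11.2%, and Cd34 in 55.2% and 28.0%. Cd48 was detected in 7.09% and 3.48%. For these 4 genes the ranges of the young and older mice did not overlap in that bin. Such non-overlap was common, at 31.7% of all genes in sums of HSC-like cells, and its share over all genes was not counted within bins. Ly6a was at 55.9% in young and 55.2% in older mice there, and Esam at 25.1% and 29.96%. In cells with 5 or 6 markers Procr was at 26.4% and 40.4%, Esam at 13.6% and 25.7%, and Cd34 at 75.9% and 45.6%. Slamf1 was at 0.683% and 5.205% there, Cd48 at 13.7% and 6.92%, and Cd244a at 10.9% and 4.55%. The ranges did not overlap for Esam, Cd34, Slamf1, Cd48 and Cd244a but did for Procr, which reached 31.9% in a young mouse and was as low as 31.2% in an older one. In cells with 3 or 4 markers the ranges did not overlap for Slamf1, Esam and Cd34 but did for the other 5 genes, among them Cd48 (19.5% to 19.7% in young, 7.23% to 29.7% in older mice) and Cd244a (10.8% to 13.3% and 4.82% to 12.4%). In cells with 0 to 2 markers the mouse with the fewest such cells, 8, was left out, since 20 were needed. In the 7 other mice the ranges did not overlap for Procr, Cd48 and Ly6a, and no cell of the young or older mice counted held Slamf1. The non-overlap of Cd48 and Cd244a thus did not hold in every bin. The fewest cells of 1 mouse with 7 or more markers were 58, so single shares there are rough. In sums of HSC-like cells drawn to the same distribution of HSC and MPP markers in every mouse, the log2 fold change of older against young was 0.89 for Procr, 1.97 for Slamf1, 0.67 for Esam and -0.66 for Cd34, each with an edgeR adjusted p of 0.0147 or lower. Cd244a was at -0.37 in these cells (adjusted p = 0.647) and did not pass.

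The other genes of the same families were read from lists of 71 genes, the 8 included, of which 48 were tested. Over all lists 19 were higher and 4 lower in older HSC-like cells, with a median log2 fold change of 0.32, beside 6.39% higher, 3.84% lower and a median of -0.03 over all genes tested. Among the 6 tested genes of the SLAM family and its adaptors, 1 was higher (Slamf1) and 2 lower, Cd244a and Ly9. Ly9, the SLAM receptor that overlaps Cd244a, was at 12.2 and 14.7 CPM in the young mice and at 6.30 to 9.03 in the older mice, with a log2 fold change of -0.77 (SE 0.19, edgeR adjusted p = 0.0217). The neighbouring Cd84 was at 0.25 (SE 0.14, adjusted p = 0.292) and did not pass.

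Of the 9 tested genes of endothelial-type junctions and adhesion, 5 were higher and 0 lower by edgeR, with a median log2 fold change of 0.81. Jam2, a junctional adhesion molecule, was at 1.597 and 3.195 CPM in the young mice and at 12.6 to 26.3 in the older mice, with a log2 fold change of 3.19 (SE 0.33, adjusted p = 0.000145). The young values of Jam2 rest on 6 and 13 UMIs, so the size of the fold is poorly fixed. Of the 4 tested genes of the protein C pathway 3 were higher, Procr, the thrombin receptor F2r and the cofactor Pros1, the last pair named after their values were seen. Of the 4 tested CD34 sialomucins and their receptors, Cd34 was lower, while its relative Podxl and Selp, P-selectin, were higher, this pair also named after their values were seen.

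Of 17 other surface genes used to sort progenitors, 7 were higher and 1 lower. Flt3, a cytokine receptor of MPP and also 1 of the MPP markers used to name classes, was at 171 and 104 CPM in the young mice and at 20.8 to 49.1 in the older mice, with a log2 fold change of -1.91 (SE 0.19, edgeR adjusted p = 0.00012). Cd38, an NAD-consuming ectoenzyme, was at 1.597 and 1.229 CPM in the young mice and at 7.68 to 16.6 in the older mice, with a log2 fold change of 3.14 (SE 0.32, adjusted p = 0.000138). The young values of Cd38 rest on 6 and 5 UMIs, so the size of the fold is poorly fixed. Neo1, the receptor neogenin, had 3 UMIs in the young male and 0 in the young female against 184 in the older mice, a ratio of 21.8 with a counting interval of 7.33 to 106. Of 3 tested Ly6 genes 1 was higher, Ly6e, named after its values were seen. Of 5 tested genes of CD27 signalling 0 were higher or lower by edgeR, with a median log2 fold change of -0.32, and the ligand Cd70 had 2 UMIs in all HSC-like cells.

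Over the 24 clusters the genes whose level was most like each of the 8 were named by Pearson's r, as a description, since clusters share libraries and depth. For Procr these were Myof (0.945), Col4a2 (0.924) and Prex2 (0.922), and for Ly6a they were Gm35551 (0.951), Snn (0.938) and Ltb (0.931). For Esam they included F11r (0.967), another junctional adhesion molecule, and Mmrn1 (0.959), a platelet granule protein. For Slamf1 they were Cyyr1 (0.904), Plscr4 (0.859) and Plxnc1 (0.856), and for Cd34 they were Kif17 (0.953), Sh2d5 (0.947) and Arid5b (0.934). Cd48 was most like Tm6sf1 (0.876), Nuak2 (0.875) and Dhrs7 (0.871), Cd244a most like Icam1 (0.932), Rassf2 (0.916) and Arhgap27 (0.916), and Cd27 most like Bcr (0.932), Elk3 (0.927) and Slco3a1 (0.920).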

How the data were processed

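The deposited files are filtered UMI count matrices of 8 libraries; per the labels the authors made them with Cell Ranger on mm10, and the counts are not normalized. The file headers and the study's methods give different Cell Ranger versions, so none is given here. Whether counting used strand is not given in the sources used here.

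Cells with at least 200 detected genes were kept, scaled and reduced to 30 principal components of 2000 variable genes. They were integrated by the Harmony method (theta 1) and clustered with leidenalg 0.10.2 (Leiden, resolution 0.8). No gene of the 8 was used for clustering or naming. A class was named from 3 or more fixed markers among the top 50 genes, and a cluster stayed unnamed, as the Ccl9-Cebpa cluster did, where fewer than 3 of its top 10 genes were markers of its own class and as many or more were markers of others. Doublets were removed only in an alternative. UMIs were summed per mouse and class and tested with edgeR 4.0.16 (quasi-likelihood, TMM, filterByExpr, sex as covariate, all 8 mice in the fit), with Benjamini-Hochberg adjustment over all genes tested and a threshold of 0.05. DESeq2 1.42.0 was an alternative. On simulated counts for older against young HSC-like cells (11511 genes), 70.1% of genes changed by a log2 of 1 and 100% of those changed by 2 were recovered, with 5 false calls.

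Shares of cells were compared by exact permutation over mice. Replicate 1 is the male and replicate 2 the female of each age, numbered in accession order. The genes named beside the 8 were the 3 most alike over clusters and, from the lists, the called genes with the 4 largest and 4 smallest fold changes; others are marked where named, and 1 gene that the rule names is not reported here. The 8 genes, the lists and the tests were chosen with earlier results of these data known.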

Additional observations from a re-analysis of the deposited data

Results flagged for a closer look

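The change of Cd34 with age differed between classes. The older-young log2 fold change in HSC-like cells minus that in MPP-like cells was -1.02 (edgeR adjusted p = 0.00835). The difference did not pass by DESeq2 (-1.02, adjusted p = 0.184), without the young male (-0.97, edgeR adjusted p = 0.107) or without the young female (-1.09, adjusted p = 0.0752). The cause was not tested.

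Cells of the 6 low-depth clusters, which entered no class, still held UMIs of all 8 genes. They held 7.58% of all Procr UMIs (503 UMIs), 9.65% of Slamf1 (330), 7.40% of Cd48 (6628), 11.1% of Cd244a (931), 6.06% of Ly6a (878), 8.14% of Esam (504), 7.36% of Cd34 (10013) and 8.75% of Cd27 (5215). In the main fits these cells entered no comparison between ages within a cell class. They were part of the sums over whole libraries, which were compared between older and young mice.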

How the results depend on the processing

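In HSC-like cells of older against young mice, 1198 of 11706 genes were called in the main fit. The calls were 1874 of 18360 with no filter, 206 of 10635 without Harmony and 384 of 11212 with the marker gate. For middle-aged against young mice they were 186 of 11706, 795 of 18360, 78 of 10635 and 68 of 11212, in the same order. The other counts below are given without the calls over all genes. With no filter the counts of the 8 genes were unchanged, and their log2 fold changes nearly so, but their SEs were smaller. For Cd48, older against young, the SE was 0.14 against 0.44 in the main fit, at log2 fold changes of -1.22 and -1.25. The calls gained with no filter thus go with smaller SEs. Of the 8 genes, 5 passed in the main fit of older against young mice. The count was 8 with no filter beyond 1 UMI in any mouse and 1 without Harmony, it ranged from 3 (without the young male) to 7 over the 8 fits that left out 1 mouse, and it stayed between 4 and 6 under the other 11 alternatives. For middle-aged against young mice the main count of 3 became 6 with no filter, 1 without Harmony, 0 with the marker gate, 1 in cells matched on markers (in both, Cd34 and none of the 3) and 0 without the sex term, and it ranged from 0 to 4 on leaving out 1 mouse. Leaving out 1 mouse, the counts ranged from 0 to 1 for female against male, 2 to 6 for the slope on age, 0 to 2 in the Adgrl4-Tespa1 cluster, 0 to 3 in megakaryocyte progenitor-like cells, 0 to 2 over whole libraries and 0 to 5 for the difference between HSC-like and MPP-like cells, where 4 genes passed without the old female and 5 without the very old female. By DESeq2 the count was 1 in the Adgrl4-Tespa1 cluster and 0 for that difference. Signs turned only in log2 values that had not passed. For middle-aged against young, Cd48 was at 0.13 with the marker gate. Leaving out 1 mouse, it ranged from -1.63 to 0.0403, Cd244a from -1.17 to 0.0667 and Cd27 from -0.35 to 0.0625, each highest without the young male, and Cd27 was at 0.03 without the middle-aged male. For the difference between classes, Ly6a ranged from -0.24 to 0.13, above 0 without the young male, the old male or the very old female, and Esam from -0.0394 (without the old male) to 0.52. The cause was not tested.

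The 5 transcript patterns kept their direction under all alternatives run, but where 2 UMIs were required of each gene the difference was 0.73 percentage points for Slamf1 without Cd48, 0.0306 for Procr with Slamf1, also with Cd48 and Cd244a absent, and 9.48 for Ly6a without Cd34. Without Harmony Ly6a without Cd34 differed by 9.21 and Cd34 with Cd27 by -6.58 percentage points. No paired analysis was possible because the labels give no replicate numbers that tie mice of different ages. Sex was a blocking term in these fits, and fits without it are among the alternatives above. Depth limits Slamf1 most, with 26 UMIs in all young HSC-like cells, and 1 mouse of each sex and age limits every comparison.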
